A study of Mus musculus with 5 samples.

Results

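Immune checkpoint genes encode the ligands and receptors with which cells hold back, or license, the immune cells they touch. The 10 genes described here were followed in sorted brain myeloid cells: Cd274 (PD-L1), Pdcd1lg2 (PD-L2), Cd80, Cd86, Vsir (VISTA), Havcr2 (TIM-3), Lgals9 (galectin-9), Lag3, Sirpa and Cd47. The members were taken by symbol, and all 10 have a row among the 52542 gene rows of the deposited tables. They were read in the 825 cells that had at least 500 unique molecular identifiers (UMIs, each standing for 1 captured mRNA molecule) outside the spike-in controls, out of 1900 wells with a cell.

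Brain tissue was taken from DM-hTAU mice, which carry a double-mutant human tau transgene driven by its natural promoter and serve as a model of tauopathy. The cells were sorted as CD45highCD11bhigh cells (CD45+ CD11b+ in the labels) at 9 months of age, and their mRNA was counted at its 3' ends with MARS-seq, which barcodes each sorted cell in the well of a plate. All 5 libraries, each a plate of 384 wells, carry the label aPDL1, so no treatment was compared, and the cells of the mice given control antibody that the study speaks of are not marked in any well. Nothing ties a library to 1 mouse, so p-values rest on the spread between libraries, which may be technical, and not on a spread between mice. Thymus and small intestine are the organs named in the extraction text of the labels, although their tissue field and the study give brain.

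PD-L1 and PD-L2 bind PD-1 on T cells and damp their activation, whereas CD80 and CD86 bind CD28, which costimulates, and CTLA-4, which inhibits. VISTA is an inhibitory B7-family protein that is abundant on myeloid cells, TIM-3 is a receptor of T cells and myeloid cells with galectin-9 among its ligands, and LAG-3 is an inhibitory receptor known best from activated T cells, where it binds MHC class II. SIRPα is the myeloid receptor for the "don't eat me" protein CD47, and this pair restrains phagocytosis. In the brain, Sirpa and Vsir are known microglial transcripts, and CD47 is made by most cells.

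Classes were gated on summed UMIs of marker genes, none of which was a member, and the class names refer to these gates. There were 258 gated microglia, 105 border macrophages (Pf4, Mrc1 and related markers), 184 cells high in MHC class II that passed neither the border macrophage gate nor another one (called MHC class II cells here), 41 Cd209a cells, 56 monocytes and 30 neutrophils. A further 33 cells carried mixed markers, 105 passed no gate, and 13 passed a T or NK gate, of which 10 held Klrd1 UMIs and 8 held Cd209a UMIs. Kept cells per library ranged from 68 to 314, with median depths from 651 to 1268 UMIs. Of the MHC class II cells, 109 still held a border marker UMI, at 9.48 per 10000 in all. Libraries AB5865 and AB5876 gave 99 of the 105 border macrophages. Median depth was 978 UMIs in microglia, 2361 in Cd209a cells and 669 in neutrophils. Microglial markers summed to 206 UMIs per 10000 in microglia, 45.0 in border macrophages, 36.3 in the MHC class II cells, 24.9 in monocytes, 20.04 in Cd209a cells and 18.8 in neutrophils, so that the other classes held 9.13% to 21.8% of the microglial level. The gates themselves cap that level, and the part of stray microglial RNA in the members' levels outside microglia was not tested.

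Levels are given as UMIs per 10000 UMIs of the class, either per library with at least 5 of its cells or over all its cells with an exact 95% Poisson interval. Shares of cells are given after thinning each cell to 500 UMIs, with exact Clopper-Pearson intervals. Both kinds of interval cover counting error only. The 20 wells without a cell held 320 UMIs in all, of which 1 was Vsir and 0 came from the other 9 members.

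Sirpa and Vsir made up most of what was captured of these genes, with 838 and 769 UMIs in kept cells. Cd47 gave 428, Havcr2 231, Lgals9 216, Cd86 159 and Lag3 92 UMIs. Cd274, the target of the antibody given to these mice, gave 18 UMIs in 15 cells, Cd80 gave 12 UMIs in 9 cells, and Pdcd1lg2 gave 0 UMIs, which allows a share of up to 0.364% of the 825 cells with a UMI (3 counts of the total). Summed over the 10 members, the level was 39.0 in microglia, 19.7 in the MHC class II cells, 19.0 in border macrophages, 16.0 in neutrophils, 15.1 in monocytes and 12.8 in Cd209a cells. At 500 UMIs, 25.6% of microglia and 41.0% of border macrophages showed none of the members, against 70.0% of neutrophils.

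**Figure D1:**
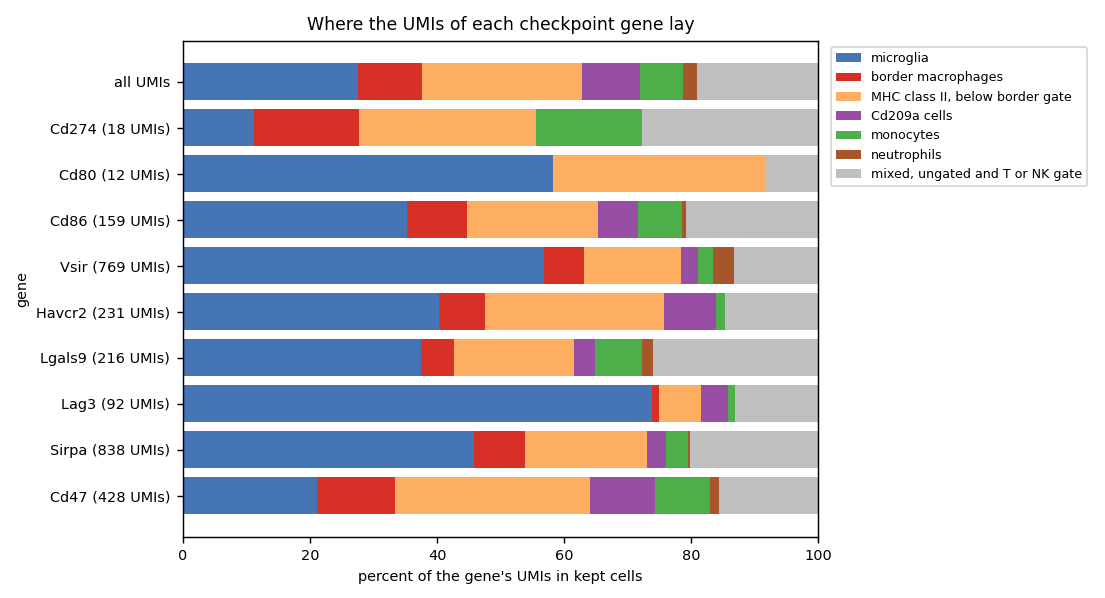
Share of each gene's UMIs (x axis, percent) that lay in each gated class (colours), with all UMIs of the 825 kept cells as the top bar; Pdcd1lg2 had no UMI and is left out. Microglia hold 73.9% of the Lag3 bar and 56.8% of the Vsir bar, beside 27.6% of all UMIs.

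Vsir was among the most abundant members, and its level was higher in microglia than in border macrophages, Cd209a cells and monocytes. Vsir (ENSMUSG00000020101.14) lies on GRCm38 chr10:60346851-60372684, plus strand, inside the span of Cdh23 on the other strand, a gene with 9 UMIs in kept cells. The microglial level was 17.2, 10.6, 13.8, 25.1 and 12.5 in libraries AB5863, AB5864, AB5865, AB5867 and AB5876, a mean of 15.8 ± 5.69 (SD, n = 5). In border macrophages it was 5.27 in AB5865 and 3.52 in AB5876, in Cd209a cells 1.24, 2.12 and 2.19 in AB5864, AB5865 and AB5876, and in monocytes 1.56, 0, 3.07 and 1.78 in AB5863, AB5864, AB5865 and AB5876. None of these values reached the lowest microglial library. Counts were therefore summed per library and class and tested in edgeR with library as a block, with Benjamini-Hochberg adjustment over all genes tested. Each comparison had 2 to 4 libraries, so the spread that edgeR used for a gene was drawn in large part from the other genes.

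Vsir was lower than in microglia in border macrophages (log2 fold change -1.57 ± 0.27, SE, edgeR adjusted p = 6.31e-07, lower in 2 of 2 libraries), in Cd209a cells (-2.91 ± 0.34, 3 of 3) and in monocytes (-2.98 ± 0.47, 4 of 4). Its pooled level in these classes was 30.4%, 14.7% and 16.5% of that in microglia, where the microglial markers were at 21.8%, 9.71% and 12.1%. In border macrophages the call rests on 2 libraries and was lost in DESeq2 (-1.54, DESeq2 adjusted p = 0.0601). In Cd209a cells and monocytes Vsir passed the filter on low counts through its microglial counts (20 UMIs against 349 and 15 against 386). Its p-values there are therefore given only without that filter. Without that filter its fold changes there were -3.01 and -3.38 (edgeR adjusted p = 4.31e-10 and 5.79e-06), beside medians of -1.08 and -1.13 over all genes. At 500 UMIs, 39.1% of microglia (33.2% to 45.4%) held a Vsir UMI, against 13.3% of border macrophages (7.49% to 21.4%), and without thinning 58.1% against 25.7%. The promoter of Vsir, the member with the highest microglial level, is shown for reference as the 250 bases before its RefSeq start (GRCm38.p6, chr10:60346601-60346850, plus strand).
Vsir: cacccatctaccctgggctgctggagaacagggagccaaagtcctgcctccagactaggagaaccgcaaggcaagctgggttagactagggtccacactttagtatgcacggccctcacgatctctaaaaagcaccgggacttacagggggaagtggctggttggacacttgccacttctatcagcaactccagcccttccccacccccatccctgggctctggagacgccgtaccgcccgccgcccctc

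In neutrophils the pooled Vsir level was 10.2 (6.63 to 15.1), with 10.4, 7.52, 31.4 and 1.30 in AB5864, AB5865 (3 cells), AB5867 and AB5876. Cells with a UMI were few: 7 of the 30 neutrophils held all 25 UMIs, and 19 of these lay in 2 cells. Without the cell with the most, a cell of AB5867 with 10 UMIs, the level was 6.28. The fold change against microglia was 0.09 ± 0.46 (SE, edgeR adjusted p = 0.888), higher in 2 of 3 libraries, and it turned to -0.56 without library AB5864 and to -0.65 without AB5867. Microglial markers stood at 12.4 in the 7 neutrophils with Vsir and at 21.1 in the others. At 500 UMIs the share of neutrophils with Vsir was 16.7% (5.64% to 34.7%), which overlaps the microglial interval and that of monocytes, 14.3% (6.38% to 26.2%), so that no order follows for neutrophils.

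**Figure D2:**
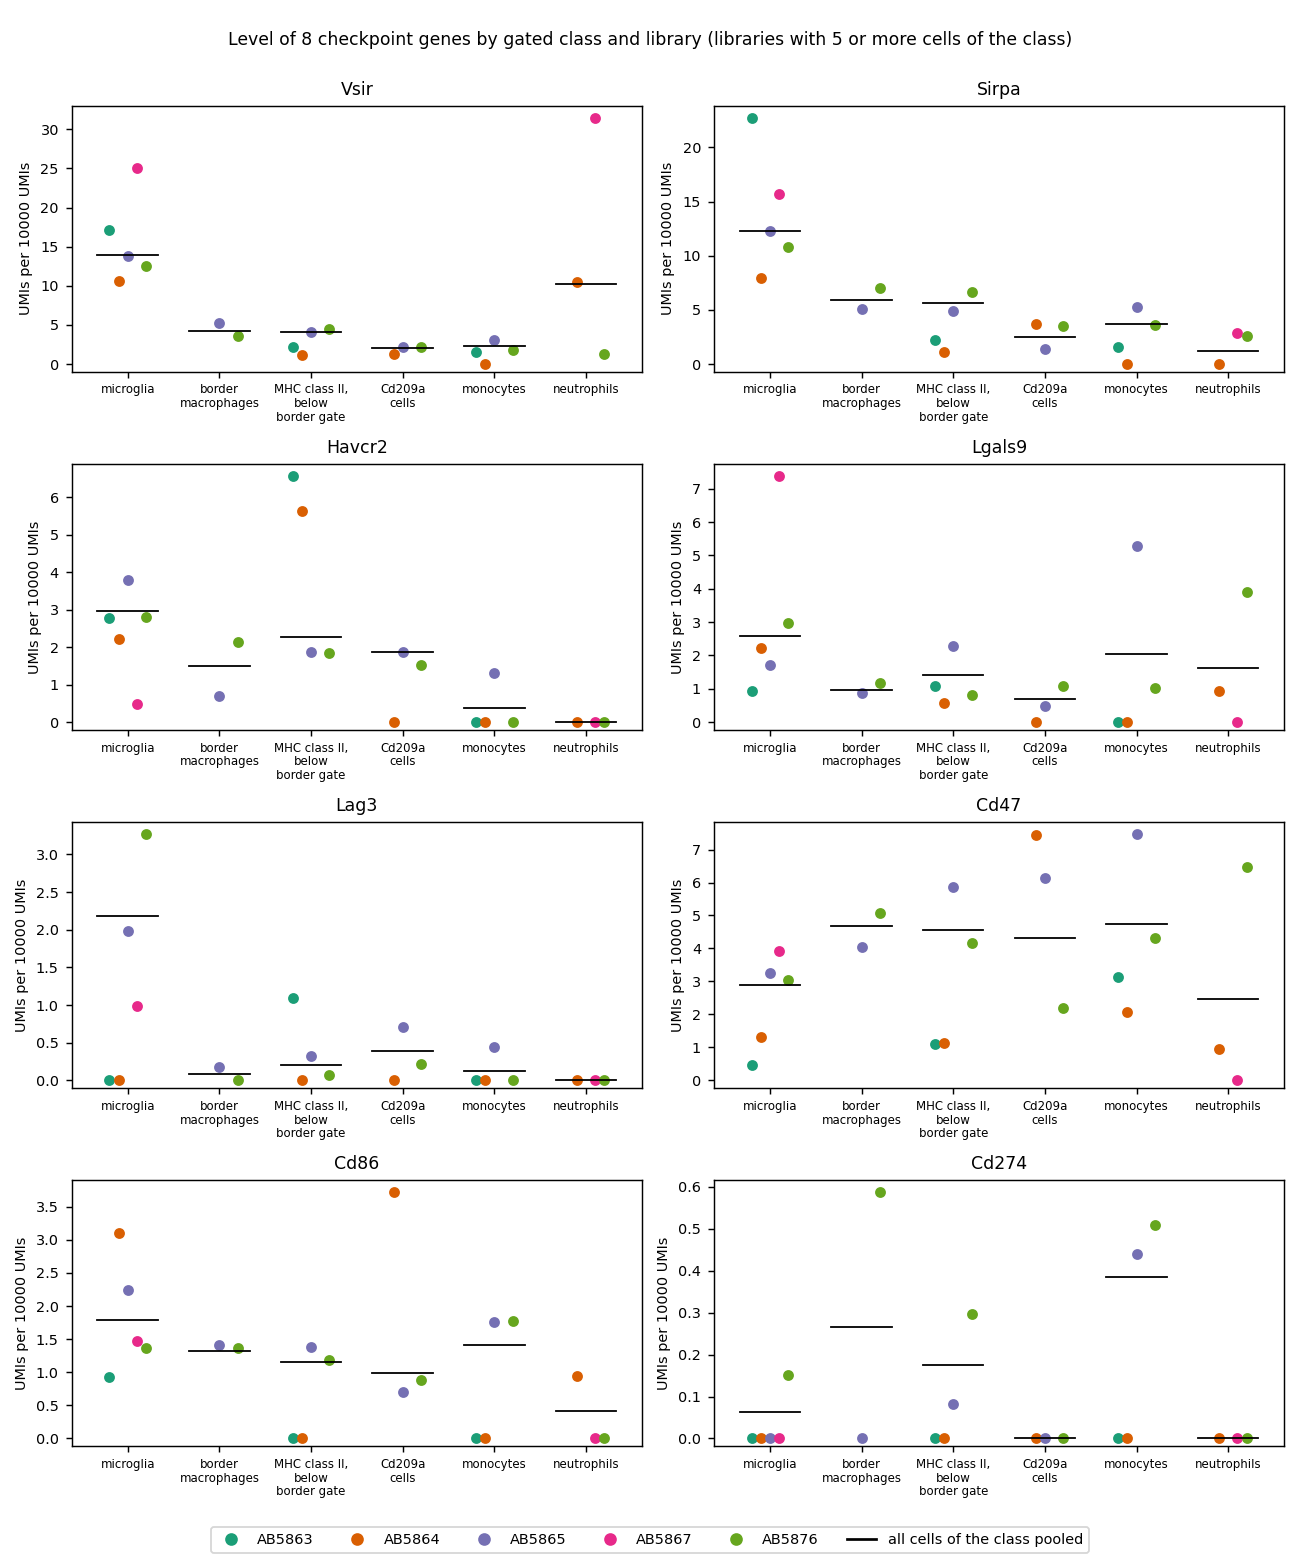
UMIs per 10000 UMIs (y axis) of 8 members in 6 gated classes (x axis), 1 point per library with at least 5 cells of the class, with a black line for all cells of the class pooled. Vsir and Sirpa are high in all 5 microglial libraries, Lag3 is above 0 in 3 of them, and the Cd47 points of the classes overlap.

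Sirpa followed the same course among the macrophage-type cells and was low in neutrophils. Sirpa (ENSMUSG00000037902.18, GRCm38 chr2:129592835-129632228, plus strand) stood at 22.7, 7.97, 12.3, 15.7 and 10.8 in the microglia of AB5863, AB5864, AB5865, AB5867 and AB5876, a mean of 13.9 ± 5.67 (SD, n = 5). Border macrophages had 5.10 and 7.04 in AB5865 and AB5876, which lies below every microglial library. Cd209a cells had 3.72, 1.41 and 3.51 in AB5864, AB5865 and AB5876, and monocytes had 1.56, 0, 5.27 and 3.56 in AB5863, AB5864, AB5865 and AB5876. Neutrophils held 3 Sirpa UMIs in 3 cells, a pooled level of 1.23 (0.253 to 3.59).

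Against microglia, Sirpa was lower in border macrophages (log2 fold change -0.92 ± 0.26, SE, edgeR adjusted p = 0.0071, 2 of 2 libraries), in Cd209a cells (-2.36 ± 0.36, 3 of 3) and in monocytes (-2.10 ± 0.43, 4 of 4). The call in border macrophages was lost under stricter gates (-0.89, edgeR adjusted p = 0.0742) and in DESeq2 (-0.88, DESeq2 adjusted p = 0.718). Its level there was 48.2% of the microglial level. In neutrophils the Sirpa fold change was -2.24 ± 0.83 (lower in 3 of 3 libraries). The 3 UMIs gave 9.997% of the microglial level, a ratio with a counting interval of 0.0205 to 0.294. Sirpa passed the filter on low counts there only through its microglial counts (3 UMIs against 192), so no p-value is given. In Cd209a cells and monocytes it also passed mostly through microglia (25 UMIs against 303 and 27 against 352). Its p-values there are therefore given only without the filter. Its unfiltered fold changes in Cd209a cells and monocytes were -2.44 and -2.57 (edgeR adjusted p = 1.89e-06 and 0.000917), beside medians of -1.08 and -1.13 over all genes. Cd209a cells were lower than border macrophages as well (-1.54 ± 0.43, edgeR adjusted p = 0.0017, 2 of 2), a call lost in DESeq2 (-1.62, DESeq2 adjusted p = 0.194) and without the filter on low counts (edgeR adjusted p = 0.0827). Vsir did not pass in that comparison (-1.21 ± 0.53, edgeR adjusted p = 0.0524), and the difference between the genes was not tested. At 500 UMIs the share of cells with Sirpa was 36.8% in microglia (30.9% to 43.0%), 23.8% in border macrophages (16.0% to 33.1%) and 12.2% in Cd209a cells (4.08% to 26.2%).

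Cd47, which encodes the ligand of SIRPα, passed no test between classes, and its pooled level was lowest in neutrophils and microglia. Cd47 (ENSMUSG00000055447.19, GRCm38 chr16:49800533-49915010, plus strand) ran from 0.464 in the microglia of AB5863 to 3.93 in those of AB5867, a mean of 2.41 ± 1.45 (SD, n = 5). Pooled, it was 2.88 in microglia (2.32 to 3.54) and 4.32 to 4.75 in border macrophages, the MHC class II cells, Cd209a cells and monocytes. By library it stood at 4.04 and 5.09 in border macrophages and between 2.07 and 7.46 in the monocytes of 4 libraries. In edgeR the difference to microglia was 0.54 ± 0.33 for border macrophages (log2 fold change, SE, adjusted p = 0.342) and 0.34 ± 0.49 for Cd209a cells (adjusted p = 0.562). Per thinned cell, Cd47 was seen in 7.36% of microglia (4.49% to 11.3%), 21.9% of border macrophages (14.4% to 31.0%), 24.4% of Cd209a cells (12.4% to 40.3%) and 19.6% of monocytes (10.2% to 32.4%). Within the pair, microglia therefore held 384 Sirpa and 90 Cd47 UMIs, and Cd209a cells 25 and 44, counts that were not scaled for transcript length and are 3'-end counts.

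Lag3 was the member most concentrated in microglia. Of its 92 UMIs, 68 lay in 37 gated microglia, 6 in the MHC class II cells, 4 in Cd209a cells, 1 each in border macrophages and monocytes, 0 in neutrophils and the rest in ungated (11) and mixed (1) cells. Lag3 (ENSMUSG00000030124.2, GRCm38 chr6:124904361-124911705, minus strand) was listed at 0, 0, 1.98, 0.983 and 3.27 in the microglia of AB5863, AB5864, AB5865, AB5867 and AB5876, so that 66 of the 68 UMIs came from the deeper libraries AB5865 and AB5876. The libraries at 0 held 29 and 25 microglia. In border macrophages the level was 0.176 in AB5865 and 0 in AB5876. In these libraries 1 UMI in border macrophages stood against 66 in microglia. Lag3 passed the filter on low counts only through its microglial counts, so no p-value is given for it. The pooled ratio of border macrophages to microglia was 0.0406, with a counting interval of 0.00101 to 0.234 and the microglial markers in the same cells stood at 21.8% of their microglial level, inside that interval.

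The 13 cells of the T or NK gate held 0 Lag3 UMIs. The Lag3-positive microglia had a median of 1530 UMIs, against 912 in those without, and a similar microglial marker level (197 and 209). At 500 UMIs, 8.14% of microglia (5.11% to 12.2%) held Lag3, and without thinning 14.3%. Neutrophils at 0 UMIs were at least 1.77-fold lower than microglia when set against a floor of 3 counts over the class.

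Havcr2 and its ligand gene Lgals9 had 40.3% and 37.5% of their UMIs in microglia. Havcr2 (ENSMUSG00000020399.14, GRCm38 chr11:46454935-46481255, plus strand) stood at 2.78, 2.21, 3.78, 0.492 and 2.81 in the microglia of AB5863, AB5864, AB5865, AB5867 and AB5876, a mean of 2.42 ± 1.22 (SD, n = 5). The MHC class II cells were at 6.57, 5.65, 1.87 and 1.86 in AB5863, AB5864, AB5865 and AB5876, values that overlap those of microglia. Border macrophages had 0.703 and 2.151 in AB5865 and AB5876, and the fold change to microglia was -1.22 ± 0.46 (log2, SE, edgeR adjusted p = 0.0687). It passed the threshold under stricter gates (edgeR adjusted p = 0.0436), on 4 UMIs against 57, and in none of the other alternatives in which Havcr2 was tested.

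Monocytes held 3 Havcr2 UMIs, all in 1 cell of AB5865, a ratio to microglia of 0.129 with a counting interval of 0.0262 to 0.390. Neutrophils held 0, at least 2.42-fold lower than microglia at a floor of 3 counts. At 500 UMIs, Havcr2 was seen in 12.4% of microglia (8.64% to 17.1%), 8.57% of border macrophages (3.99% to 15.6%) and 8.70% of the MHC class II cells (5.05% to 13.7%). Its 250 upstream bases (GRCm38.p6, chr11:46454681-46454930, plus strand) are shown because they hold a match, in capitals, to GAGGAA, a PU.1-type core that was searched on both strands and that 23.3% of the 32851 RefSeq promoter windows of this length hold. Among the other members, Lgals9 holds 2 such matches and Pdcd1lg2 holds 1.
Havcr2: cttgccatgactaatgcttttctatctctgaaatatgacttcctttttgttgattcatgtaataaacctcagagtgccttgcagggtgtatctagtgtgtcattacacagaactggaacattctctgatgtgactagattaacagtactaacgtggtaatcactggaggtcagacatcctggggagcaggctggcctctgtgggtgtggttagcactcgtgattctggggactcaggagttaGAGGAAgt

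Lgals9 (ENSMUSG00000001123.15, GRCm38 chr11:78962974-78984946, minus strand) varied between libraries. Its microglial level was 0.927, 2.21, 1.72, 7.37 and 2.96 in AB5863, AB5864, AB5865, AB5867 and AB5876, and monocytes had 0, 0, 5.27 and 1.02 in AB5863, AB5864, AB5865 and AB5876. The classes therefore overlapped. Border macrophages were at 0.879 and 1.17 in AB5865 and AB5876, below the microglia of the same plates, with a fold change of -1.14 ± 0.58 (log2, SE, edgeR adjusted p = 0.221). Pooled, Lgals9 ran from 2.59 in microglia (2.06 to 3.22) and 2.05 in monocytes (1.17 to 3.33) to 0.688 in Cd209a cells (0.276 to 1.42).

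The B7 ligands of CD28 and CTLA-4 were low in every class. Cd86 (ENSMUSG00000022901.13, GRCm38 chr16:36603869-36666081, minus strand) was found in all 6 classes, from 1.79 in microglia (1.35 to 2.33) through 1.41 in monocytes, 1.33 in border macrophages, 1.15 in the MHC class II cells and 0.982 in Cd209a cells to 0.410 in neutrophils, and each of these neighbours overlapped in its interval. Its microglial libraries ran from 0.927 to 3.10. The edgeR fold change of border macrophages to microglia was -0.34 ± 0.61 (log2, SE, adjusted p = 0.841). Cd80 (ENSMUSG00000075122.5, GRCm38 chr16:38455561-38496335, plus strand) had 7 UMIs in 5 microglia, 4 in 3 of the MHC class II cells and 0 in border macrophages, Cd209a cells, monocytes and neutrophils. Its microglial level was 0.224 (0.0901 to 0.462), under the 0.265 that a count of 0 allows in border macrophages, so a difference was not detectable at this depth.

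Cd274, which encodes PD-L1, lay near the limit of detection in every class. Cd274 (ENSMUSG00000016496.7, GRCm38 chr19:29367455-29388095, plus strand) gave 5 UMIs in the MHC class II cells, 3 in border macrophages, 3 in monocytes, 2 in microglia and 0 in Cd209a cells and neutrophils, with 4 of the other 5 in ungated cells and 1 in the T or NK gate. The levels were 0.385 in monocytes (0.0794 to 1.12), 0.265 in border macrophages (0.0547 to 0.776), 0.174 in the MHC class II cells (0.0566 to 0.407) and 0.0640 in microglia (0.00775 to 0.231), and all 4 intervals overlap. Library AB5876 held 16 of the 18 UMIs, 88.9%, with 47.1% of all UMIs, and AB5865 held the other 2. The 3 shallower libraries held 0. An mRNA count says nothing of PD-L1 protein or of antibody bound to it.

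PD-L1 is a known interferon-inducible gene, and interferon response genes were read beside it. The 15 genes of that list (Irf1, Irf7, Cxcl9, Cxcl10 and others) summed to 40.1 UMIs per 10000 in the 15 cells with Cd274 (33.3 to 47.8) and to 17.8 in the 810 cells without (17.0 to 18.6). The median depth was 1391 UMIs in the former and 1012 in the latter. In the MHC class II cells the values were 61.8 in 3 cells with Cd274 and 25.3 in 181 without, in monocytes 88.7 in 3 and 37.8 in 53, and in border macrophages 4.85 in 3 and 20.01 in 102. In microglia they were 15.1 (5.55 to 32.9) in 2 and 12.2 (10.99 to 13.5) in 256. The counting intervals thus stood apart in the MHC class II cells and in monocytes, with the higher value beside Cd274. They overlapped in microglia and in border macrophages, where the value beside Cd274 was the lower. Each class had 2 or 3 positive cells, and the values over all cells mix classes whose levels differ. Of the 15 cells with Cd274, 13 came from AB5876, and cells are not replicates, so no test was made. The 250 bases before the Cd274 start (GRCm38.p6, chr19:29367188-29367437, plus strand) are shown for their match, in capitals, to GAAANNGAA or its reverse TTCNNTTTC, an interferon-type repeat that 7.13% of the RefSeq windows hold. The window of Lgals9 holds 1 such match as well.
Cd274: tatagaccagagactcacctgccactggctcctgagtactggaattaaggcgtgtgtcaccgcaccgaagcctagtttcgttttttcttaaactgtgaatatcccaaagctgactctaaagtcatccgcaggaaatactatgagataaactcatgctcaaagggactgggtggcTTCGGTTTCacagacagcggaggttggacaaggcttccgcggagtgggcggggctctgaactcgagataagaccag

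Of the 10 members, 7 have a RefSeq promoter entry. Pdcd1lg2 (ENSMUSG00000016498.10, GRCm38 chr19:29410919-29471161, plus strand), which neighbours Cd274, had 0 UMIs in all 1900 cell wells. It overlaps A930007I19Rik on the other strand, which had 10 UMIs in kept cells.

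**Figure D3:**
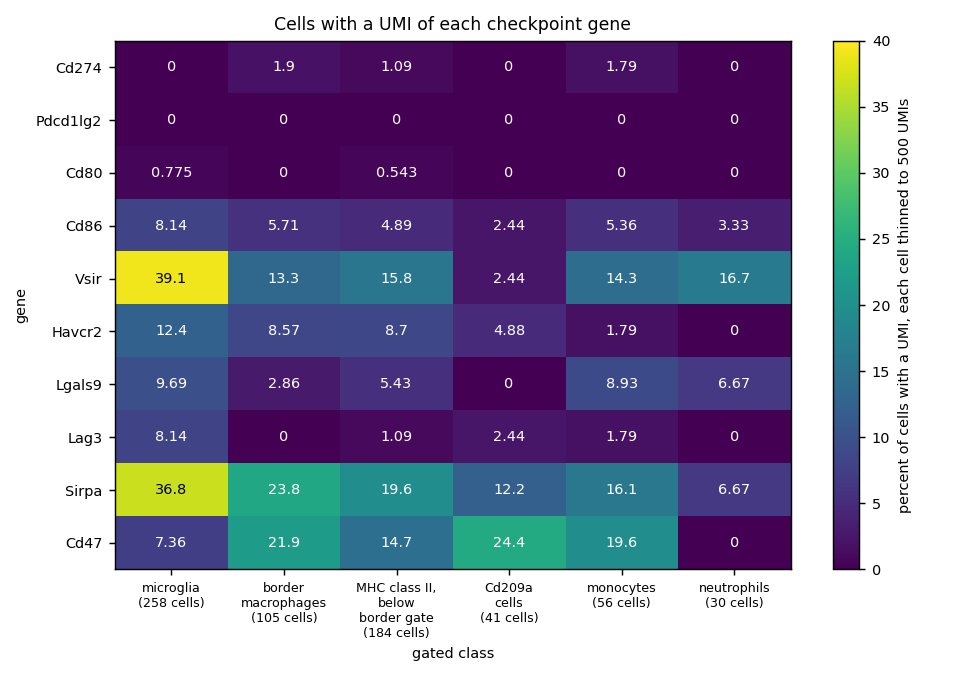
Percent of cells with at least 1 UMI of each member (rows) in each gated class (columns, with the number of cells), each cell thinned to 500 UMIs; colours run from 0 to 40 percent. Vsir and Sirpa reach 39.1% and 36.8% in microglia, and Cd274, Cd80 and Pdcd1lg2 stay under 2% in every class.

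Each count of calls was set beside the share of all genes tested that were called. Of the 10 members, 7 passed the filter on low counts in border macrophages against microglia. Leaving Lag3 aside, Vsir and Sirpa were called lower, where 5.81% of all 1479 genes tested were called lower. In DESeq2 the fold changes were close (-1.54 for Vsir and -0.88 for Sirpa) but both calls were lost (DESeq2 adjusted p = 0.0601 and 0.718), as they were among cells of at least 1000 UMIs, where edgeR called 0 genes of 1015 (151 at an unadjusted p under 0.05). In Cd209a cells against microglia 3 members passed the filter and 2 were called lower, with 28.3% of all genes called lower. In monocytes against microglia both members that passed were called lower, with 26.2% of all genes. In neutrophils against microglia, leaving Sirpa aside, Vsir was not called, where 33.6% of all genes were called lower. In Cd209a cells against border macrophages 1 of 3 was called lower, with 20% of all genes. In these 4 comparisons a large share of all genes was called, so the counts of members show nothing particular to them.

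**Figure D4:**
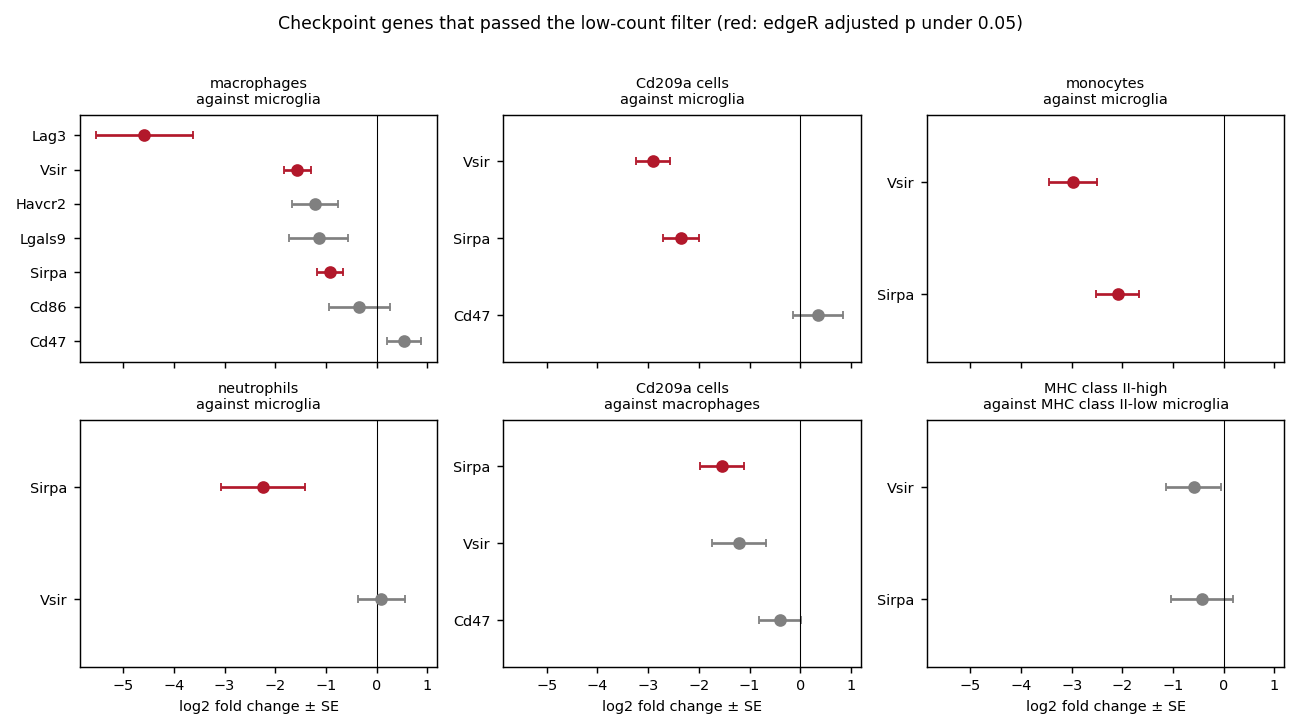
log2 fold change ± SE (x axis) of each member that passed the filter on low counts, in the 6 comparisons tested in edgeR with library as a block; red marks an adjusted p under 0.05. Vsir and Sirpa lie left of 0 in border macrophages, Cd209a cells and monocytes against microglia, and Cd47 passes in no comparison. The Lag3 point rests on 1 UMI against 66, and the Sirpa point in neutrophils on 3 against 192. These points are red but passed the filter only through microglial counts, so their colour is not read as a result. Vsir and Sirpa in Cd209a cells and monocytes against microglia also passed it mostly through microglia.

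Within microglia, 2 of the 10 members, Vsir and Sirpa, could be tested between MHC class II-high and MHC class II-low cells, and neither passed. Pooled over libraries, Vsir was at 11.1 in the 37 MHC class II-high cells (8.31 to 14.4) and 14.5 in the 221 low ones (13.1 to 16.1). The edgeR fold change was -0.60 ± 0.54 for Vsir (log2, SE, adjusted p = 0.778) and -0.43 ± 0.62 for Sirpa (adjusted p = 0.844), in a comparison where 1.2% of 166 genes were called in either direction. Havcr2 was at 4.09 in the high cells (2.50 to 6.32) and 2.77 in the low ones (2.17 to 3.48). Lag3 was at 1.84 (0.843 to 3.50) and 2.24 (1.70 to 2.89), so both of these pairs overlap. The values were 1.43 (0.576 to 2.95) and 2.81 (2.20 to 3.53) for Lgals9, 2.25 (1.12 to 4.03) and 1.71 (1.25 to 2.28) for Cd86 and 3.28 (1.87 to 5.32) and 2.81 (2.20 to 3.53) for Cd47. In the 16 microglia with activation markers (Spp1, Lpl, Clec7a and others) at 50 per 10000 or more, Vsir was at 8.69 (4.97 to 14.1) against 14.3 (12.99 to 15.8) in the other 242, and Sirpa at 15.8 (10.6 to 22.6) against 12.1 (10.9 to 13.4).

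More of the members were seen per cell in microglia than in the other named classes. At 500 UMIs a gated microglial cell showed a mean of 1.22 of the 10 genes, and 11.2% showed 3 or more, against 3.81% of border macrophages, 1.09% of the MHC class II cells and 0 of the 41 Cd209a cells and 30 neutrophils. A count of 0 allows shares of up to 7.32% and 10% in these last classes (3 counts of the total). The largest number in 1 cell was 4.

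Most partners of the members gave few UMIs, although Lgals3 had 280. The sort took CD45highCD11bhigh cells and was not made to collect T cells, so low counts of T cell receptors do not describe the brain. The 7 lists of partner and related checkpoint genes hold 54 genes, of which 49 have a row, 39 had a UMI in kept cells and 12 had at least 50. In the PD-1 and CD28 receptor family, Pdcd1 had 9 UMIs, Ctla4 0, Cd28 0, Icos 2 and Btla 18, of which 13 lay in Cd209a cells. Of the ligands, Icosl (ICOS ligand) had 68 UMIs and Cd276 (B7-H3) 9. In the TIGIT axis, Pvr had 22 UMIs, Nectin2 7, Cd226 4, Tigit 3 and Cd96 2.

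Among the other inhibitory receptors of myeloid cells, 15 of 18 listed genes had a UMI. In border macrophages against microglia 7 of the 54 genes were tested and 1 was called higher, beside 4.06% of all genes tested. This was Clec12a, an inhibitory C-type lectin (log2 fold change 2.05 ± 0.62, SE, edgeR adjusted p = 0.0149, 2 of 2 libraries). The call rests on 29 UMIs against 16, and among cells of at least 1000 UMIs edgeR called 0 genes in this comparison. In Cd209a cells against microglia, 5 of the 54 were tested, and 2 were higher and 2 lower, where 26.2% of all genes were called higher and 28.3% lower. Lair1, a collagen receptor that inhibits myeloid cells, was lower (-2.78 ± 0.46, 3 of 3 libraries, 12 UMIs against 188). Inpp5d, the SHIP1 phosphatase, was lower as well (-1.87 ± 0.55, 3 of 3, 13 UMIs against 113). Lgals3, a galectin that binds LAG-3 among others, was higher (2.95 ± 0.63, 3 of 3, 50 UMIs against 16), and so was Cd52, a small sialic acid-bearing surface protein (1.21 ± 0.24, edgeR adjusted p = 0.000272, 3 of 3). Lair1, Inpp5d and Lgals3 passed the filter on low counts mostly through the class where they were higher, so no p-value is given for them. Cd52 was also higher in monocytes than in microglia (1.39 ± 0.35, edgeR adjusted p = 0.000504, 4 of 4 libraries), 1 of 2 tested there beside 13.5% of all genes, and in neutrophils (1.70 ± 0.46, edgeR adjusted p = 0.00374, 3 of 3), the 1 gene tested, beside 26.9% of all genes.

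In Cd209a cells against border macrophages 7 of the 54 were tested, with 2 higher and 1 lower, where 21.3% of all genes were called higher and 20% lower. Lgals3 (log2 fold change 3.05 ± 0.71, SE, 41 UMIs against 5) and Cd52 (1.20 ± 0.26, edgeR adjusted p = 4.13e-05) were higher, and Lair1 (-2.08 ± 0.56, 12 UMIs against 55) was lower, each in 2 of 2 libraries. Lgals3 and Lair1 again passed the filter mostly through the class where they were higher, so no p-value is given for them. Both tested phosphatases of inhibitory signalling did not pass in border macrophages against microglia. Over the 7 list genes tested in border macrophages against microglia the median fold change was 0.19, beside -0.01 over all genes. Over the 5 tested in Cd209a cells against microglia it was -0.12, beside -0.05.

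Likeness was described by the Pearson correlation of log2(UMIs per 10000 + 1) over the 8 gated classes, among 1652 genes with at least 100 UMIs. These points share libraries and depth, and no test was made. The genes nearest to Sirpa were Abi3 (r = 0.987), Rhob (0.985) and Cttnbp2nl (0.984), and those nearest to Lag3 were Mylip (0.984), Cd34 (0.948) and Slc29a3 (0.945). Vsir was nearest to Itgam (0.889), Sec61a1 (0.884) and Ddx5 (0.874). Havcr2 was nearest to Macf1 (0.951), Selenos (0.946) and Commd8 (0.938), and Lgals9 to Eif5 (0.924), Cers2 (0.897) and Ube2d2a (0.895). Cd86 was nearest to Rtfdc1 (0.975), Ganab (0.964) and Itm2c (0.961), and Cd47 to Mndal (0.954), Trir (0.911) and Naaa (0.910).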

How the data were processed

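Raw UMI counts per gene and well, not normalized, were deposited by the authors. Before deposit they demultiplexed, mapped and filtered the reads by a published MARS-seq pipeline and collapsed them to UMIs. The processing notes of the submitters list bcl2fastq (2.15.0.4) and mm10. Which aligner was run is not given in those sources. A deposited table gives the number of cells per well. Each of 5 libraries held 384 wells, and total UMIs in cell wells ran from 128116 to 549767 per library. Doublets were excluded by the sort and no caller was run.

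Cells with at least 500 UMIs outside the spike-ins were kept. A cell was called a neutrophil at 1000 or more marker UMIs per 10000, T or NK at 3 UMIs, and microglia at 100 per 10000. Below that, the border macrophage and monocyte gates needed 40 per 10000 and 3 UMIs, the Cd209a gate needed 2 UMIs, and MHC class II was split at 200. Cells within 20% of a threshold numbered 94 for microglia and 42 for border macrophages. Thresholds were set on marker sums alone. The members, lists and tests were chosen with earlier results of these data known. Named genes are the 10 members, up to 4 list genes per comparison by adjusted p, and the 3 most alike genes per member. A result on 1 list gene is not reported here.

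Counts were summed per library and class, for libraries with at least 5 cells of both classes, and tested with edgeR 4.0.16 in R 4.3.3 (quasi-likelihood, TMM, filterByExpr, library as block, adjusted p under 0.05), leaving out the genes of the gates. DESeq2 1.42.0, other filters, depths and gates, and leaving out libraries were alternatives. On simulated data for border macrophages against microglia (1255 genes), 18.1% of genes changed 2-fold and 83.3% of those changed 4-fold were recovered. The simulated counts had a fixed dispersion and no library effect. Neither was matched to the data, so these rates are not the power of the real tests. Gene positions are from GENCODE vM21, and promoters from RefSeq (GRCm38.p6).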

Additional observations from a re-analysis of the deposited data

Results flagged for a closer look

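Among 26 sets of 4 or 5 libraries of 1 gene in 1 class, 3 had 1 library far from the others. In each of them all other libraries were at 0, so that any UMI stands apart, and the usual chance rate of about 1 in 20 sets need not hold for such sparse counts. Cd274 in microglia was 0.152 UMIs per 10000 in AB5876 (2 UMIs) and 0 in the other 4 libraries. In the monocytes of AB5865, Havcr2 was 1.32 (3 UMIs) and Lag3 was 0.439 (1 UMI), with 0 in the other 3 libraries for both genes. Each of the 3 values rests on 3 UMIs or fewer, and no test was made.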

How the results depend on the processing

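For the members, 114 of 134 alternative fold changes kept their direction and their side of the threshold, 13 lost significance, 2 gained it and 5 turned in sign, none of the last past the threshold. Vsir and Sirpa stayed lower in Cd209a cells and in monocytes than in microglia, with adjusted p under 0.05 in edgeR and DESeq2 alike, in every alternative run (9 and 10 for each gene). All of these runs except that without the filter on low counts kept this filter. Both genes passed it mostly through their microglial counts, so only the unfiltered run is free of that choice. In border macrophages against microglia, the members called fell to 0 in DESeq2 and to 0 at 1000 UMIs per cell. Without library AB5865 or AB5876 that comparison could not be fitted, and the same holds for Cd209a cells against border macrophages. All genes called there fell from 146 to 23 in DESeq2, 92 without the filter on low counts, 89 without the library block, 43 at 300 UMIs, 0 at 1000 UMIs and 84 with stricter gates. The Cd86 fold change turned to 0.078 (log2) with stricter gates there.

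In Cd209a cells against microglia 318 genes were called, 195 in DESeq2, 163 without the filter, and 90 to 365 with 1 library left out. In monocytes against microglia 106 were called, 181 at 1000 UMIs, and 61 to 129 with 1 library left out. In neutrophils against microglia 72 were called, 45 in DESeq2, 36 without the filter, 141 at 300 UMIs, and 41 to 111 with 1 library left out. The members called there fell from 1 (Sirpa, on 3 neutrophil UMIs) to 0 in DESeq2, without the filter, at 300 UMIs and with stricter gates, where Sirpa was not tested. That count ran from 0 to 1 with 1 library left out. Without the filter the Sirpa fold change was -3.77, beside a median of -1.64 over all genes. Vsir was at -1.36 in neutrophils without the filter, where the median over all 11849 genes was -1.64, beside -0.58 over 119 genes in the main run. With 1 library left out Vsir ran from -0.65 (without AB5867) over -0.56 (without AB5864) to 0.79 (without AB5876).

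In Cd209a cells against border macrophages 295 were called, 67 in DESeq2, 151 without the filter, 85 at 300 UMIs and 82 with the MHC class II cells added to the macrophages, an alternative chosen after seeing the data. The members called were 1, then 0 in DESeq2, without the filter and at 300 UMIs, and 2 at 1000 UMIs. Between MHC class II-high and low microglia 2 genes were called, 1 without the filter, 8 at 300 UMIs and 0 to 5 with 1 library left out, and the fold change of Sirpa ran from -0.99 without AB5864 to 0.16 without AB5863. Too few libraries were left for neutrophils at 1000 UMIs, and for the microglial split at 1000 UMIs or with stricter gates. The cause of these changes was not tested. Shares of microglia with a UMI moved by more than 1 SD in 23 of 90 alternatives, mostly with the depth to which cells were thinned. The class sums of 1 library were paired through the library block. Depth limits Cd274, Cd80 and Pdcd1lg2 to a count of detections.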
